A study of Mus musculus with 12 samples.

Results

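The mRNA levels of 10 surface genes through which a B cell exchanges signals with T cells, NK cells and macrophages were examined in mouse Eµ-Myc lymphoma: Cd274, Cd80, Cd86, Cd40, Icosl, Btla, Tnfrsf14, Nectin2, Pvr and Cd47. They were a given list of immune checkpoint and costimulatory genes, matched by mouse symbol, and make up 10 of the 56748 gene IDs counted. Of these, 9 were among the 13535 genes that passed the filter on low counts, and Pvr was not. Some of the 9, such as Cd86 and Nectin2, were at a few counts in 1 group and passed through the groups in which they were higher, so counts over the members describe them and support nothing further.

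Eµ-Myc lymphoma is a malignancy of B cells in which the immunoglobulin heavy-chain enhancer drives the Myc oncogene. The 12 libraries came from cells labelled as a B cell line of this lymphoma: 4 taken straight from culture (culture), 4 sorted from lymph nodes of C57BL/6J mice on day 11 after injection, having spread through lymphatic vessels (lymphatic), and 4 sorted from lymph nodes on day 18, having spread through the blood (hematogenous). Route and day of collection changed together and cannot be told apart. The tissue label reads lymph node for the culture libraries too, and the titles were followed. All 3 groups carry the same Eµ-Myc transgene. The labels name neither the sorting gate nor whether numbered libraries came from separate animals or cultures, so p-values measure the spread between these libraries, which may be technical. The cells are labelled as 1 cell line, and whether that line is a clone is not given.

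Assigned counts ran from 5655422 to 12738568 per culture library, from 12399951 to 25302016 per lymphatic library and from 5286775 to 12444690 per hematogenous library. Lymphatic replicate 4 stood apart: ribosomal protein genes took 16.0% of its counts, against 7.61% to 9.87% in the other 11 libraries. Results for the members that change without it are given both ways. For the other gene lists below, call counts that moved are given as ranges over the single libraries left out. All 10 B cell markers were detected in each group, with summed levels of 5732 to 6096 CPM (counts per 1e6 assigned counts) in culture, 5765 to 6882 CPM in the lymphatic and 7427 to 8048 CPM in the hematogenous libraries. Markers of T cells and macrophages also differed between the groups, and their values are given with the members below.

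B cells display short peptides to T cells together with second signals that set how the T cell responds. CD80 and CD86 bind CD28, which promotes T cell activation, and CTLA-4, which restrains it. ICOS ligand binds ICOS, and PD-L1 binds the inhibitory receptor PD-1. CD40 receives help from T cells through CD40 ligand, and BTLA and HVEM bind each other. NECTIN2 and PVR are bound by DNAM-1 and TIGIT, and CD47 binds SIRPα on phagocytes as a signal against engulfment. In the text below a change is a log2 difference ± its approximate standard error (SE) from edgeR's quasi-likelihood test over all genes. A change is called where the Benjamini-Hochberg adjusted p is under 0.05. The interval given with a change is an approximate 95% interval for that gene alone, from the SE and 9 residual degrees of freedom. It is not adjusted for the number of genes, so it can exclude 0 where the adjusted p misses the threshold. Levels are CPM scaled by the TMM method, as mean ± SD of 4 libraries, listed in the order of replicates 1 to 4. Being bulk levels, they cannot tell fewer cells of a type from less RNA per cell.

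Between lymphatic and culture libraries, 3 of the 9 tested members were higher (Cd86, Icosl, Cd47) and 2 lower (Btla, Nectin2). Over all genes tested 26.4% were called, 13.4% higher and 13.0% lower. The lymphatic and culture values did not overlap for 5 of the 9, against 30.1% of all genes. Between hematogenous and culture libraries, 4 were higher (Cd80, Cd86, Icosl, Cd47) and 2 lower (Cd274, Nectin2), where 27.8% of all genes were called, 13.9% in each direction. Values did not overlap for 6 of the 9, against 43.6% of all genes. These 2 comparisons share the culture libraries. Between lymphatic and hematogenous libraries, 1 member was higher in the lymphatic group (Cd274) and 3 were lower (Icosl, Btla, Nectin2), where 22.3% of all genes were called, 11.4% higher and 10.9% lower, and values did not overlap for 4 of the 9 members against 24.6% of all genes. Without lymphatic replicate 4, 6 members were called between the lymph node groups, and the share of all genes called in the 3 comparisons was 35.6%, 43.1% and 31.5%. The median log2 change over the 9 members was 0.20, 0.68 and −0.66 in these comparisons, and over all genes 0.04, −0.00072 and 0.03.

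**Figure D1:**
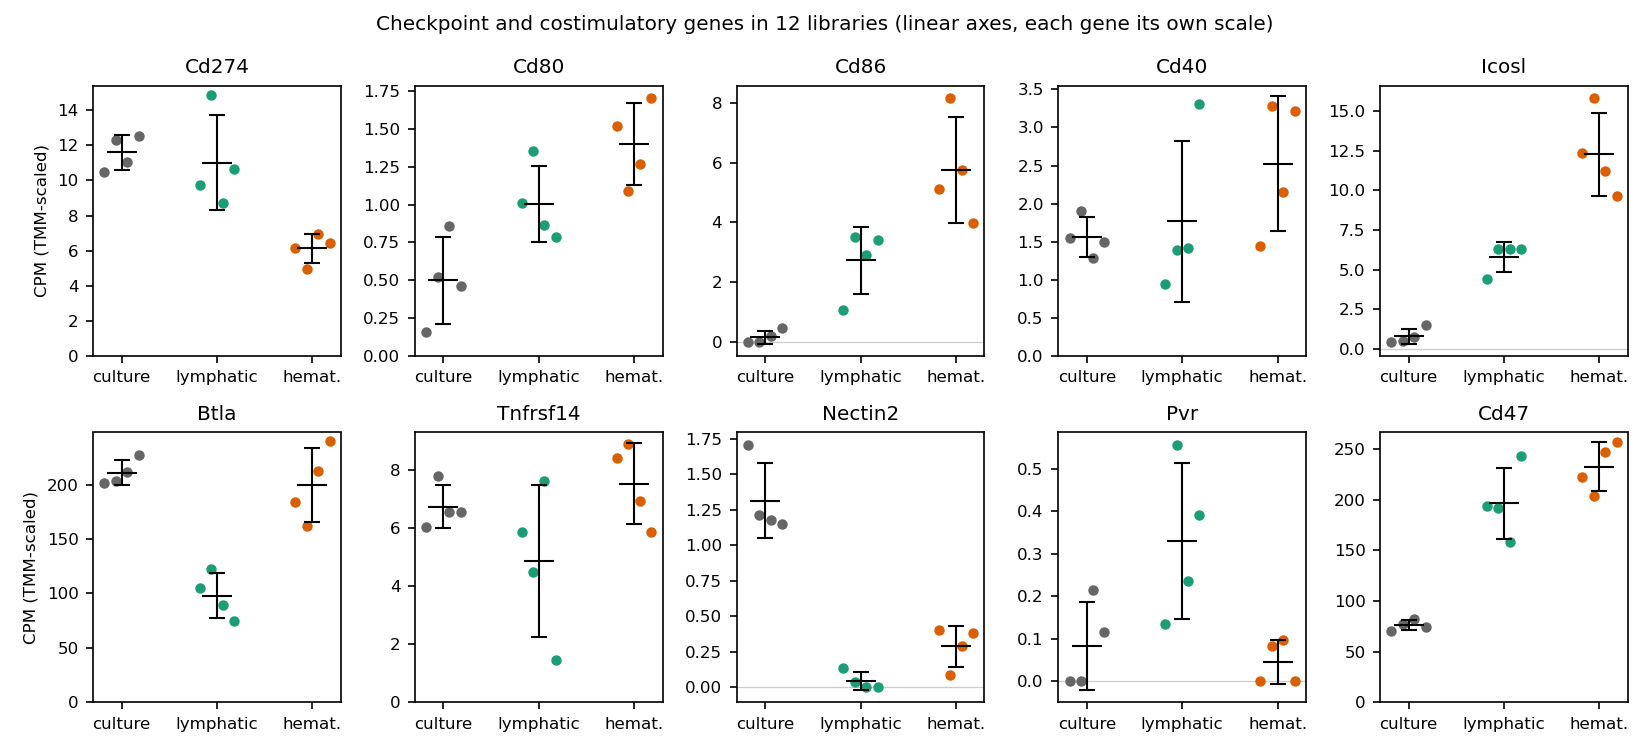
Level of each of the 10 genes in each of the 12 libraries, in TMM-scaled CPM on linear axes, each gene on its own scale; each point is 1 library and the bars are the mean ± SD of a group of 4. Btla is lowest in the lymphatic libraries, Cd274 in the hematogenous libraries, and Icosl, Cd86 and Cd47 are low in culture.

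CD86 and CD80, the B7 proteins bound by CD28 and CTLA-4, were both scarce in culture. Cd86 had 0, 0, 0.215 and 0.460 CPM in culture, 6 counts in all. It had 1.08, 3.50, 2.91 and 3.42 CPM in the lymphatic libraries and 5.13, 8.15, 5.76 and 3.98 CPM in the hematogenous libraries. The 3 groups did not overlap in any pair. Cd86 was higher than in culture by 3.97 ± 0.653 in the lymphatic libraries (adjusted p = 5.07e-04, edgeR) and by 5.05 ± 0.635 in the hematogenous libraries (adjusted p = 3.67e-05). Without culture replicate 4, which held 4 of the 6 culture counts, these changes were 5.08 and 6.15. The ratio of summed counts per depth, which rests on no prior count, was 17.5 (95% interval 7.91 to 48.3) for lymphatic and 36.9 (16.7 to 101.6) for hematogenous libraries, intervals that cover counting error only. The lymphatic level was below the hematogenous one by a log2 change of −1.08 ± 0.415, which missed the threshold (adjusted p = 0.0776, interval −2.02 to −0.14) and passed it without lymphatic replicate 4 (−1.21, adjusted p = 0.0265), without the filter on low counts (0.0103), with DESeq2 (0.0288) and with limma-voom (0.0439).

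Cd80 had 0.155, 0.520, 0.858 and 0.460 CPM in culture, 1.01, 1.35, 0.866 and 0.785 CPM in the lymphatic libraries and 1.52, 1.09, 1.27 and 1.71 CPM in the hematogenous libraries. Every hematogenous value lay above every culture value, while the lymphatic values overlapped those of culture. The rise in hematogenous libraries was 1.51 ± 0.431 (adjusted p = 0.0172, edgeR), and without culture replicate 1, the library with the lowest level, it was 1.13 with an adjusted p of 0.0595. For the lymphatic libraries the difference was 1.08 ± 0.422 (adjusted p = 0.0764, interval 0.12 to 2.03), with an adjusted p of 0.0333 without culture replicate 3 and 0.0432 without lymphatic replicate 4. Lymphatic and hematogenous levels differed by −0.43 ± 0.362 (adjusted p = 0.413, interval −1.25 to 0.39).

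Because CD80 and CD86 share their receptors, their ratio was also taken within each library, per kilobase of exons. Cd86 to Cd80 was 0, 0, 0.253 and 1.01 in culture, 1.08, 2.62, 3.40 and 4.41 in the lymphatic and 3.41, 7.55, 4.59 and 2.36 in the hematogenous libraries. Culture lay below both lymph node groups, with a two-sided exact permutation p of 0.0286 in each case, the lowest that 4 against 4 allows (adjusted p = 0.0857 over the 6 ratio tests). The lymphatic and hematogenous ratios overlapped (2.88 ± 1.40 and 4.48 ± 2.24, exact permutation p = 0.314, adjusted p = 0.411). The culture ratios rest on 2 to 8 Cd80 counts per library.

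Icosl, which encodes the ligand of the T cell costimulator ICOS, separated all 3 groups. It had 0.466, 0.520, 0.751 and 1.50 CPM in culture, 4.39, 6.29, 6.30 and 6.28 CPM in the lymphatic libraries and 12.3, 15.8, 11.2 and 9.67 CPM in the hematogenous libraries. No 2 groups overlapped. Icosl was 7.18-fold higher in lymphatic than in culture libraries (log2 change 2.84 ± 0.319, adjusted p = 2.08e-05, edgeR) and 15.2-fold higher in hematogenous than in culture libraries (3.93 ± 0.318, adjusted p = 6.30e-07). The lymphatic level was below the hematogenous level by −1.08 ± 0.248 (adjusted p = 0.00723).

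Cd274 encodes PD-L1, the ligand of PD-1, and was lower in the hematogenous libraries than in either other group. Its levels were 10.5, 12.3, 11.0 and 12.5 CPM in culture, 9.72, 14.9, 8.74 and 10.7 CPM in the lymphatic libraries and 6.17, 4.96, 6.93 and 6.44 CPM in the hematogenous libraries. The highest hematogenous value lay below the lowest of the other 8. The hematogenous change from culture was −0.92 ± 0.192 (adjusted p = 0.00233, edgeR), and the lymphatic libraries stood 1.81-fold above the hematogenous ones (0.85 ± 0.189, adjusted p = 0.00566). Lymphatic and culture levels overlapped and differed by −0.07 ± 0.183 (adjusted p = 0.823, interval −0.48 to 0.35). Of the B7 family ligands in the list, Cd274 was thus the one that was lower in hematogenous libraries where Cd80, Cd86 and Icosl were higher.

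The windows around the annotated start of Cd274, Icosl, Btla and Cd47 are shown because these 4 genes were called in different patterns and are the best counted of the called members with a window. Each has 250 bases before the start and 50 after it, from RefSeq on GRCm38.p6, on the plus strand, 5′ to 3′, at chr19:29367188-29367487 (Cd274), chr10:78069118-78069417 (Icosl), chr16:45224087-45224386 (Btla) and chr16:49855404-49855703 (Cd47, the first of its annotated windows). Capitals mark GC boxes (GGGCGG), an E-box (CACGTG) and a PU box (GAGGAAGT).
Cd274: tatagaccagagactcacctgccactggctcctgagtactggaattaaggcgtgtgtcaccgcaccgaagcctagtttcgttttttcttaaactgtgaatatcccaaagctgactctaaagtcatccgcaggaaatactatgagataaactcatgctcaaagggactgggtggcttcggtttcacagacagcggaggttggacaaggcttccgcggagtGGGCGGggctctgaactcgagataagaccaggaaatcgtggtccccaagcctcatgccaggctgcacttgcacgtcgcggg
Icosl: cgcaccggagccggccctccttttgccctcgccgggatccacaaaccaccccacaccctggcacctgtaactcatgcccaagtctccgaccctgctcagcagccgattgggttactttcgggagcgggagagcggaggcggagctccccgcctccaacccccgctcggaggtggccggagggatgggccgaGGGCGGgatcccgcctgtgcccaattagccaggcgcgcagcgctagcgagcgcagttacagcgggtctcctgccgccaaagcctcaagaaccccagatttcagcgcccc
Btla: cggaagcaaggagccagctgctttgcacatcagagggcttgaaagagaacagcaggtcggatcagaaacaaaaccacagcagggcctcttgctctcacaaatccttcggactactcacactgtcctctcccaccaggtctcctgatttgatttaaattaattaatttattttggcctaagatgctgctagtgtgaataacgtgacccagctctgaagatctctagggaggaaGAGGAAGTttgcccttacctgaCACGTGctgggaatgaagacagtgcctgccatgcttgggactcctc
Cd47: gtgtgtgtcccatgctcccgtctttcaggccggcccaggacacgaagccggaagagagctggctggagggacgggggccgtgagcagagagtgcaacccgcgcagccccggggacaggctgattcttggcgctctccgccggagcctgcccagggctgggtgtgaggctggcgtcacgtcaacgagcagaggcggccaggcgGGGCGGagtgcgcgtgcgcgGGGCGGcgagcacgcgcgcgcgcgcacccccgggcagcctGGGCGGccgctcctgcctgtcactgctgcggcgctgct

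Windows were found for 7 of the 10 members, all but Cd86, Cd40 and Pvr. Each was searched on both strands for 8 motifs. The GC box, the letters bound by SP1, stood once in the Cd274 and Icosl windows and 3 times in those of Cd47 and Nectin2, and 35.7% of the 32851 windows of this length in the table hold it. The Btla window held the E-box, the letters bound by MYC with MAX, at bases 4 to 9 after the start (7.15% of all windows) and a PU box, bound by PU.1, at bases −18 to −11 (3.20%). The Tnfrsf14 window held an interferon-stimulated response element on the minus strand relative to the gene at bases −64 to −55 (3.44%), and that of Nectin2 a cyclic AMP response element, TGACGTCA, at bases 39 to 46 (1.79%). No member window held the gamma-activated site TTCNNNGAA (8.30% of all windows), the kappa-B motif (1.47%) or the EBF motif (0.904%). GC content was 74.0% for Cd47, 68.0% for Icosl, 52.7% for Cd274 and 49.0% for Btla, against a median of 52.7% over all windows. A match describes the letters of the window and is neither a site nor a cause.

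Cd40, the receptor for T cell help, was low in every group and was called in no comparison. It had 1.55, 1.91, 1.29 and 1.50 CPM in culture, 0.945, 1.39, 1.42 and 3.31 CPM in the lymphatic libraries and 1.44, 3.28, 2.15 and 3.22 CPM in the hematogenous libraries. All groups overlapped, and the highest lymphatic value was that of replicate 4. The changes were 0.20 ± 0.399 for lymphatic against culture (adjusted p = 0.751, edgeR, interval −0.70 to 1.11), 0.68 ± 0.407 for hematogenous against culture (adjusted p = 0.250, interval −0.24 to 1.60) and −0.48 ± 0.382 for lymphatic against hematogenous (adjusted p = 0.387, interval −1.34 to 0.38). Without lymphatic replicate 4 the first was −0.29 (adjusted p = 0.531), and the last was −0.97 and passed the threshold (adjusted p = 0.0289).

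Btla, an inhibitory receptor of B and T cells, was the most abundant member per kilobase in culture and was lower in the lymphatic libraries than in both other groups. It had 202, 203, 211 and 227 CPM in culture, 105, 123, 89.0 and 75.2 CPM in the lymphatic libraries and 184, 162, 213 and 240 CPM in the hematogenous libraries. Every lymphatic value was below the lowest of the other 8. The lymphatic change was −1.10 ± 0.155 from culture (adjusted p = 1.46e-04, edgeR) and −1.02 ± 0.155 from the hematogenous libraries (adjusted p = 5.06e-04). Hematogenous and culture levels, 199.6 ± 33.9 and 211 ± 11.4 CPM, overlapped, with a difference of −0.08 ± 0.153 (adjusted p = 0.756, interval −0.43 to 0.27).

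Tnfrsf14 encodes HVEM, the TNF receptor family partner of BTLA. It had 6.05, 7.80, 6.54 and 6.56 CPM in culture, 5.87, 4.50, 7.63 and 1.46 CPM in the lymphatic libraries and 8.41, 8.90, 6.93 and 5.88 CPM in the hematogenous libraries. The groups overlapped, and the lowest value was that of lymphatic replicate 4. No change passed the threshold: −0.48 ± 0.354 for lymphatic against culture (adjusted p = 0.350, edgeR, interval −1.28 to 0.32), 0.18 ± 0.354 for hematogenous against culture (adjusted p = 0.761) and −0.66 ± 0.350 for lymphatic against hematogenous (adjusted p = 0.193). The ratio of Tnfrsf14 to Btla per kilobase was 0.0757 ± 0.0102 in culture, 0.117 ± 0.0672 in the lymphatic libraries, where it ran from 0.0458 to 0.203, and 0.0932 ± 0.0320 in the hematogenous libraries. Exact permutation tests of this ratio gave p = 0.343, 0.343 and 0.6 (adjusted p = 0.411, 0.411 and 0.6).

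Nectin2 and Pvr had at most 50 counts over the 4 libraries of any group. Nectin2 had 1.71, 1.21, 1.18 and 1.15 CPM in culture, 0.135, 0.040, 0 and 0 CPM in the lymphatic libraries and 0.401, 0.084, 0.293 and 0.379 CPM in the hematogenous libraries, or 50, 3 and 11 counts in all. Every culture value was above all lymph node values. The fitted change from culture was −4.66 ± 0.605 in the lymphatic (adjusted p = 7.43e-05, edgeR) and −2.22 ± 0.512 in the hematogenous libraries (adjusted p = 0.00469). Without lymphatic replicate 1, which had the highest lymphatic level, the lymphatic change was −5.58. On summed counts per depth, culture exceeded the lymphatic libraries 32.0-fold (95% interval 10.3 to 160.6, counting error only). The lymphatic and hematogenous values overlapped. Their fitted difference of −2.44 ± 0.759 was called (adjusted p = 0.0339), and the call was lost in 9 of 19 alternatives. Among these were a replicate block (adjusted p = 0.0604), no filter on low counts (0.0645), and leaving out any of lymphatic replicates 2, 3 and 4 or hematogenous replicates 1, 3 and 4, with adjusted p up to 0.122. Without lymphatic replicate 1 the difference was −3.36. On summed counts the hematogenous level was 6.48-fold the lymphatic one (1.71 to 36.2).

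Pvr, the poliovirus receptor CD155, had 0, 0, 0.215 and 0.115 CPM in culture, 0.135, 0.557, 0.236 and 0.393 CPM in the lymphatic libraries and 0, 0.084, 0.098 and 0 CPM in the hematogenous libraries, or 3, 26 and 2 counts in all. It was detected in all 4 lymphatic libraries, which lay above all hematogenous values and overlapped culture. The lowest lymphatic value was 2 counts, and 1 count in hematogenous replicate 4 would be 0.190 CPM, so this separation hangs on single counts. On summed counts the lymphatic level was 4.51-fold that of culture (1.38 to 23.3) and 7.36-fold that of the hematogenous libraries (1.84 to 64.0), counting error only. In a fit of all genes without the filter the changes were 1.94 (adjusted p = 0.207, edgeR) and 2.55 (adjusted p = 0.11), so neither passed.

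Cd47, whose product signals through SIRPα to phagocytes, was higher in both lymph node groups. Its levels were 70.5, 77.7, 82.1 and 74.2 CPM in culture, 193, 192, 158 and 243 CPM in the lymphatic libraries and 223, 203, 247 and 257 CPM in the hematogenous libraries. The lowest lymph node value was above the highest culture value, and the lymph node groups overlapped. The rise from culture was 2.58-fold in the lymphatic (1.37 ± 0.132, adjusted p = 5.55e-06, edgeR) and 3.05-fold in the hematogenous libraries (1.61 ± 0.133, adjusted p = 7.73e-07). Lymphatic and hematogenous levels differed by −0.24 ± 0.129 (adjusted p = 0.195, interval −0.53 to 0.05), and by −0.37 without lymphatic replicate 4, which passed (adjusted p = 0.00929).

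**Figure D2:**
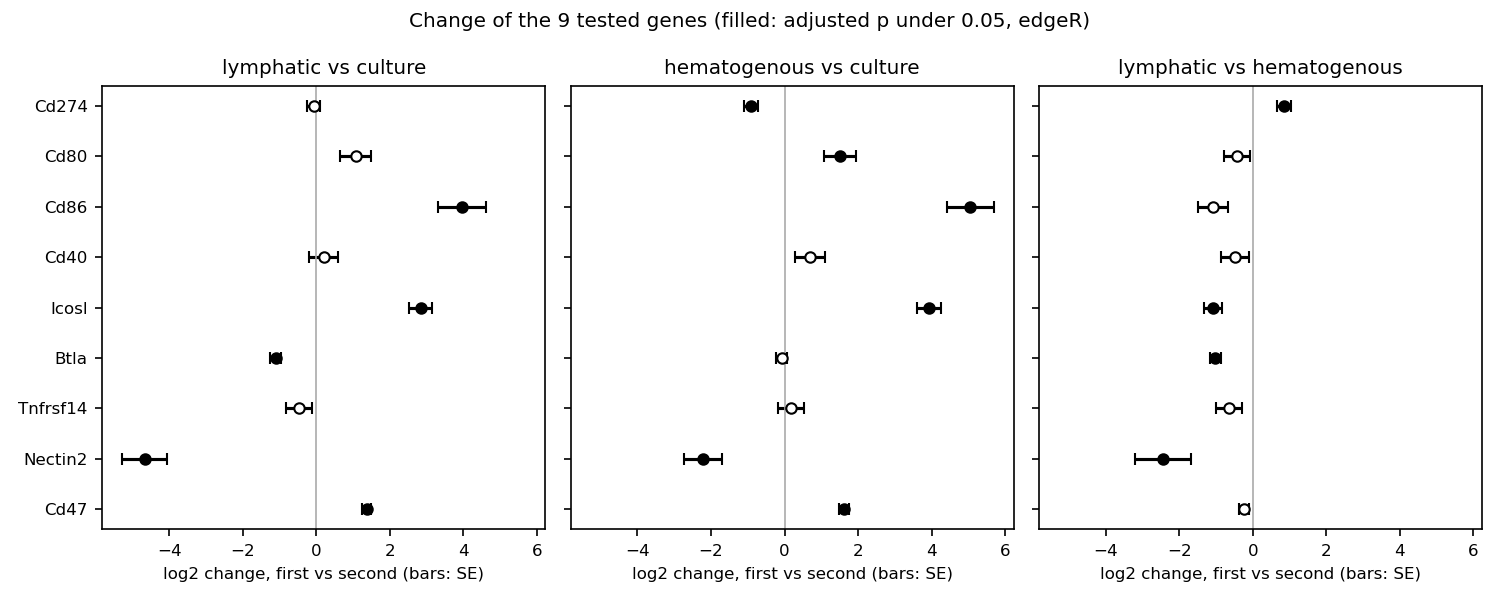
Log2 change of each tested member in the 3 comparisons from edgeR's fit; bars are the SE, and filled points have an adjusted p under 0.05. Cd86 and Icosl lie farthest above 0 against culture, Nectin2 farthest below, and Cd274, Icosl, Btla and Nectin2 are called between the lymph node groups.

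Levels were compared between genes per kilobase of exons. In culture Btla stood first with 62.1 CPM per kilobase, followed by Cd47 with 12.1, Tnfrsf14 with 4.69, Cd274 with 3.20 and Cd40 with 0.458, each range apart from the one before it. Nectin2 overlapped Cd40. Icosl, at 0.175, lay apart from Nectin2 above it, and Icosl, Cd80, Cd86 and Pvr each overlapped the next. In the lymphatic libraries Cd47 with 31.3 and Btla with 28.9 CPM per kilobase overlapped, as did Tnfrsf14 with 3.38 and Cd274 with 3.04, and Icosl followed with 1.26. In the hematogenous libraries the order was Btla with 58.8, Cd47 with 37.0, Tnfrsf14 with 5.24 and Icosl with 2.65 CPM per kilobase, all apart. Cd274 with 1.69 and Cd86 with 1.57 then overlapped. Icosl thus ranked below Nectin2 in culture and above Cd274 in the hematogenous libraries. At the foot of the order stood Pvr in culture and hematogenous libraries and Nectin2, overlapping Pvr, in the lymphatic ones.

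**Figure D3:**
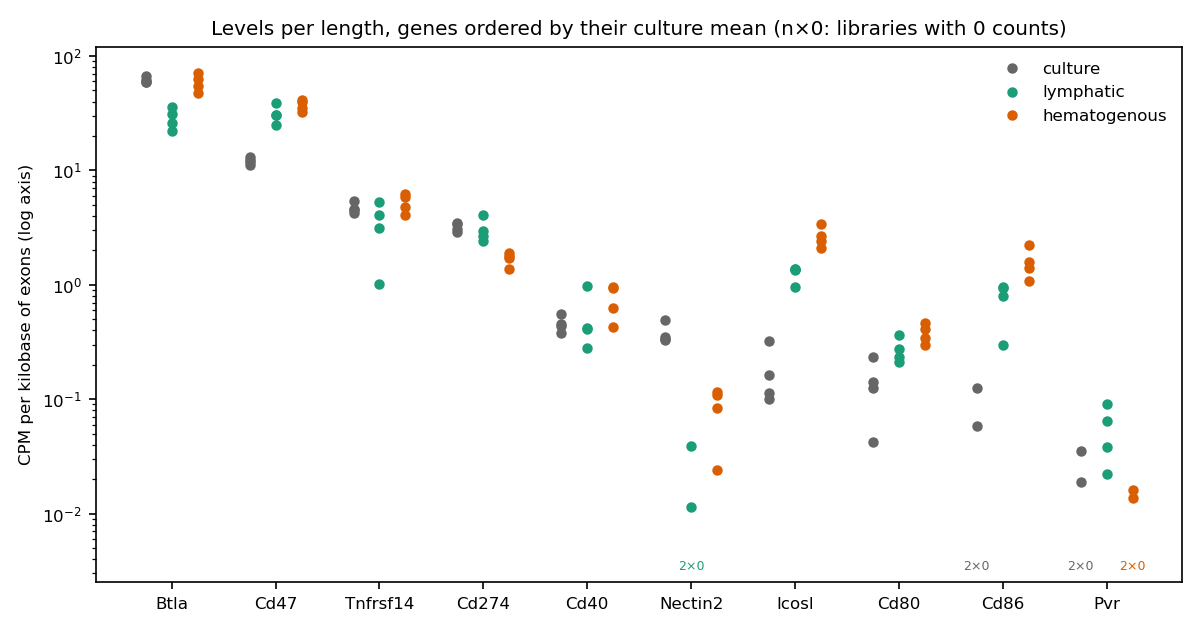
Level of each member per kilobase of exons by group, on a log axis; points are the libraries of a group, and libraries with 0 counts are counted at the foot. Btla and Cd47 lead in all 3 groups and lie together in the lymphatic libraries, at 28.9 and 31.3 CPM per kilobase.

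For each member called in some comparison, the tested genes of at least 10 CPM on average with the closest pattern were found, by the root mean square difference in centred log2 CPM over the 12 libraries among 8273 genes. Cd2, an adhesion receptor of lymphocytes, lay closest to Cd47, at a difference of 0.142, with 34.1 CPM in culture, 96.2 in the lymphatic and 118.7 in the hematogenous libraries, followed by Nipsnap1 (0.166). Enpp1 (0.177) and Arhgap17 (0.184) lay closest to Btla. Arhgap17 had 200.8, 100.2 and 193.4 CPM. Klhl7 (0.148) and Zfand5 (0.158) lay closest to Cd274, Dpp4 (0.446) and Wfdc13 (0.490) to Icosl, and Patj (0.322) and Slc28a2 (0.331) to Cd80. Zc3h12d (0.358), with 68.7, 7.17 and 19.4 CPM, and Rasd1 (0.371) lay closest to Nectin2. For Cd86 they were Arl11 (0.749) and H2-Ab1 (0.756), the MHC class II beta chain gene with 17.4, 140.7 and 437.8 CPM. For scale, each member's own root mean square about its mean was 0.722 for Cd47, 0.548 for Btla, 0.454 for Cd274, 1.63 for Icosl, 0.687 for Cd80, 1.23 for Nectin2 and 1.95 for Cd86. The genes were picked as the nearest of 8273, so distances below these values were nearly fixed by the choice and support nothing.

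The other genes of these pathways were taken from lists. Over all genes tested, 26.4% were called in lymphatic and 27.8% in hematogenous against culture libraries, and 22.3% between the lymph node groups. Of 10 other B7 and CD28 family genes 4 were tested. Cd28 (3.11 ± 0.595) and Vsir, which encodes the inhibitory ligand VISTA (3.68 ± 0.509), were higher and Cd276, which encodes B7-H3 (−2.22 ± 0.506), was lower in lymphatic than in culture libraries. In hematogenous libraries Vsir was higher (2.82 ± 0.545) and Cd276 lower (−2.22 ± 0.545), and Cd28 was higher in lymphatic than in hematogenous libraries (2.83 ± 0.564). Cd28, a T cell receptor, had 6 counts over the culture libraries. Of 14 TNF family costimulators 8 were tested. Cd27 and Ltb were higher and Tnfsf9 and Tnfsf18 lower in lymphatic libraries, Cd27 and Tnfrsf18 higher and Tnfsf9 and Tnfsf18 lower in hematogenous ones, and Ltb was higher in lymphatic than in hematogenous libraries (1.89 ± 0.633), a call lost when any 1 of the culture libraries was left out. Ltb ran from 1.96 to 17.3 CPM in lymphatic and from 0.569 to 3.70 CPM in hematogenous libraries, so these groups overlapped. Tnfsf9, which encodes the 4-1BB ligand, fell from 1.78 ± 0.299 CPM in culture to 0.392 ± 0.206 in lymphatic and 0.107 ± 0.105 CPM in hematogenous libraries. Of the 9 nectin and TIGIT axis genes only Nectin4 was tested, and it was higher in lymphatic libraries (1.03 ± 0.323, adjusted p = 0.0302, edgeR), a call lost with DESeq2 and without lymphatic replicate 2. The genes named in this paragraph are below 10 CPM on average and were chosen after their values were seen.

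Of 18 other inhibitory surface genes 10 were tested. Against culture 7 were called in the lymphatic and 9 in the hematogenous libraries, each of them higher, and the medians were 1.12 and 1.63. Over all genes 13.4% and 13.9% were called higher, and the medians were 0.04 and −0.00072. Lgals9, which encodes galectin-9, rose by 1.48 ± 0.130 and 1.72 ± 0.131, and Siglecg, an inhibitory lectin of B cells, by 1.14 ± 0.103 and 1.54 ± 0.104. Cd52 rose by 1.18 ± 0.298 and 2.50 ± 0.306, and Cd24a, whose product is a ligand of Siglec-G in mice, by 0.45 ± 0.111 in the lymphatic libraries. Its level was also higher in hematogenous than in culture libraries, at 2081 ± 49.0 against 1642 ± 63.5 CPM. Cd244a, which encodes the receptor 2B4, rose by 2.71 ± 0.203 in the hematogenous libraries. Cd244a was also higher in lymphatic than in culture libraries, at 8.37 ± 1.01 against 3.90 ± 0.329 CPM. Between the lymph node groups Cd244a (−1.60 ± 0.185), Cd52 (−1.32 ± 0.287) and Siglecg (−0.40 ± 0.101) were lower in lymphatic libraries. Sirpa, the receptor bound by CD47, was higher there (1.43 ± 0.354), at 3.23 ± 1.31 against 1.15 ± 0.414 CPM, and had 3 counts in culture; it was chosen after its values were seen.

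All 26 genes listed as regulators of the members were tested. Against culture, 6 were higher and 12 lower in lymphatic libraries (median −0.28), and 8 were higher and 7 lower in hematogenous ones (median 0.08). Over all genes 26.4% and 27.8% were called, with medians of 0.04 and −0.00072, and 22.3% were called between the lymph node groups. Ciita, the MHC class II transactivator, rose by 1.66 ± 0.211 in lymphatic libraries, where Cmtm4 (−1.38 ± 0.167), whose product stabilises PD-L1, and Bach2 (−1.19 ± 0.206), a B cell transcription factor, fell. In hematogenous libraries Marchf1, a ubiquitin ligase that removes CD86 and MHC class II from the surface, rose by 3.80 ± 0.392 and Ciita by 3.51 ± 0.221, while Nfkb2 (−1.38 ± 0.232) and Cmtm4 (−1.18 ± 0.168) fell. Lymphatic libraries also had more Marchf1 than culture (4.53 ± 0.809 against 0.877 ± 0.568 CPM) and less Nfkb2 (10.1 ± 2.38 against 19.1 ± 2.15 CPM). Between the lymph node groups 3 were higher in lymphatic libraries, among them Irf1 (1.08 ± 0.181) and Marchf8 (0.52 ± 0.136), chosen after their values were seen. The 8 lower ones included Ciita (−1.85 ± 0.201), Irf8 (−1.44 ± 0.168), Marchf1 (−1.44 ± 0.315) and Bach2 (−1.41 ± 0.207). Irf1, a transcription factor that carries interferon signals to the Cd274 gene, had 25.5 ± 1.91 CPM in culture, 42.6 ± 11.7 in lymphatic and 20.1 ± 2.52 CPM in hematogenous libraries. It was higher in lymphatic than in culture libraries (0.74 ± 0.179, adjusted p = 0.00752, edgeR). In hematogenous against culture libraries Irf1 was not called (−0.34 ± 0.183, adjusted p = 0.193, edgeR). Cd274 differed by −0.07 in the first of these comparisons and was lower in the second. Between the lymph node groups both Irf1 (1.08) and Cd274 (0.85) were higher in lymphatic libraries. A link between these genes was not tested.

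Of 17 genes of CD40 signalling and its targets 13 were tested. Against culture 4 were higher and 1 lower in lymphatic libraries (median 0.34), and 6 higher and 1 lower in hematogenous libraries (median 0.33). The shares of all genes called were 26.4% and 27.8%, with medians of 0.04 and −0.00072, and 22.3% between the lymph node groups. Nfkbia, the NF-κB inhibitor, rose by 0.97 ± 0.209 and 1.21 ± 0.211, and Traf5 by 0.70 ± 0.150 in lymphatic libraries. Birc3 rose by 1.03 ± 0.170 and Traf3 by 0.81 ± 0.179 in hematogenous libraries. Icam1, an adhesion molecule, fell by 1.06 ± 0.172 and 1.38 ± 0.176. Between the lymph node groups Cd83, an activation marker, was higher (1.67 ± 0.470) and Birc3 lower (−0.67 ± 0.167) in lymphatic libraries, both chosen after their values were seen. Cd83 had 0 counts in culture and was at least 7.48-fold higher in lymphatic and at least 2.32-fold higher in hematogenous libraries, against a floor of 3 counts in each culture library. With Cd83 at that bound the list's medians were the same.

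Summed markers of T cells and of macrophages and monocytes did not overlap between the groups, while those of dendritic and plasma cells did. The 13 T cell markers summed to 1.72 to 4.94 CPM in culture, with 6 of them at 0 counts, to 26.6 to 110.2 CPM in the lymphatic libraries, with the highest in replicate 4, and to 9.37 to 20.7 CPM in the hematogenous libraries. The 13 macrophage and monocyte markers summed to 14.7 to 19.9 CPM in culture, with 6 at 0, to 29.2 to 83.4 CPM in lymphatic and to 20.5 to 28.3 CPM in hematogenous libraries. Lyz2 and Trbc2, defining markers of myeloid and T cells, had 0 counts in culture, 27.6 and 8.07 CPM in lymphatic and 11.7 and 1.18 CPM in hematogenous libraries. The list did not move as 1: of 6 macrophage markers tested 4 were higher and 2 lower than in culture in each lymph node group, and Csf1r, a lower one, had 8.52 CPM in culture, 3.75 in lymphatic and 1.49 CPM in hematogenous libraries. The 11 dendritic cell markers ran from 11.8 to 18.2, 7.69 to 18.7 and 8.79 to 13.3 CPM in the 3 groups, with 5 at 0 in culture. NK cell markers summed to 18.7 to 22.8, 1.82 to 11.7 and 0.379 to 2.52 CPM, with 4, 0 and 1 of 8 at 0 counts. This sum rests mostly on Klrb1c, which had 802 counts over the 12 libraries, against 103 for Nkg7, the next highest. The NK cell sum is therefore no measure of the other markers in the list. Plasma cell markers summed to 112.9 to 124.3, 106.1 to 147.7 and 91.5 to 121.8 CPM in the 3 groups. Stromal and endothelial markers summed to 76.2 to 80.6, 80.7 to 114.9 and 139.3 to 167.4 CPM, of which Pecam1 alone had means of 75.6, 98.6 and 153.3 CPM, and 1, 4 and 7 of the 11 were at 0 counts. The summed T cell and macrophage markers were higher in the lymphatic than in the hematogenous libraries. Among the members, mean levels of Cd274 (11.0 against 6.13 CPM) and Pvr (0.330 against 0.0454 CPM) were also higher in the lymphatic libraries. Those of Cd86 (2.73 against 5.75 CPM, not called), Icosl (5.81 against 12.3 CPM) and the remaining members were lower there. The part of these cells in the values of Cd86, Pvr, Cd47, Cd28, Sirpa and the other members was not tested.

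**Figure D4:**
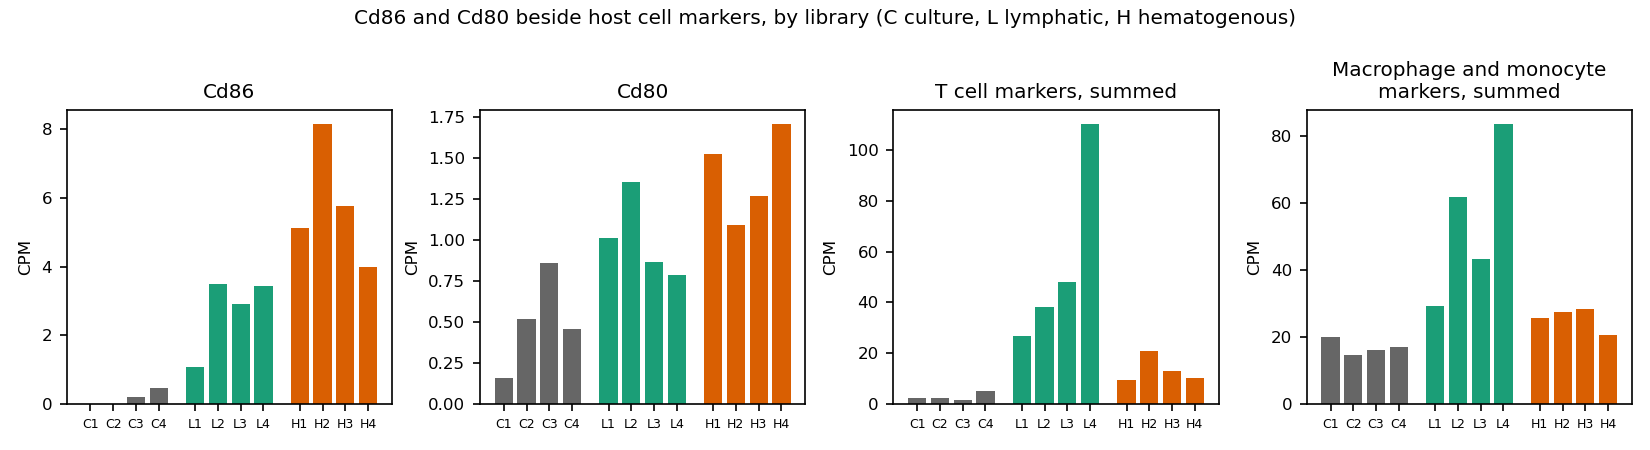
Level of Cd86 and Cd80 and the summed levels of the T cell and the macrophage and monocyte markers in each library, in CPM; each bar is 1 library (C culture, L lymphatic, H hematogenous). The marker sums reach 110.2 and 83.4 CPM in the lymphatic libraries. Cd86 reaches 8.15 CPM in the hematogenous libraries, and the part of these cells in its values was not tested.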

How the data were processed

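Poly(A)-selected RNA from 12 samples was sequenced as stranded single-end reads, per the labels' protocols. The authors deposited whole-number read counts per gene ID. Tools listed were FastQC 0.11.9, Trimmomatic 0.39, HISAT2 2.1.0 and HTSeq 2.0.2 with build GRCm39, per the submitters' processing notes; the strand setting of the counting is not given in the sources used here, so reads of overlapping antisense genes may be mixed. Unassigned reads, 30.3% to 36.5% of each library, were left out.

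Symbols and transcript lengths came from GENCODE M21 (91.8% of 56748 IDs matched). Counts were fitted over all 12 libraries with edgeR 4.0.16 in R 4.3.3 (TMM factors, filterByExpr, quasi-likelihood test on group), adjusted over 13535 genes at 0.05. The code was tested on simulated data. Promoter windows are from RefSeq, GRCm38.p6. Alternatives were DESeq2 1.42.0, limma 3.58.1 (voom), other scalings, no filter, only the compared groups, a replicate block and leaving out libraries. All 10 members were named; list genes were named when called, with groups that did not overlap and at least 10 CPM in the higher group, up to 4 per list and comparison, and others are said to be chosen after their values were seen. A gene that this rule names is not reported here. For each called member the 2 genes nearest in pattern were named. The members and lists were chosen with earlier results of these data known.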

Additional observations from a re-analysis of the deposited data

Results flagged for a closer look

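In the lymphatic libraries Icosl was at 4.39 CPM in replicate 1, farther below the other 3 than a Dixon test of 4 values allows. In culture Nectin2 was at 1.71 CPM in replicate 1, above the other 3 by the same test. Chance marks about 1 in 20 groups in this way, and 10 genes in 3 groups were examined.

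The change from culture differed between the lymphatic and hematogenous groups, by the direct test of the 2 groups, for Cd274 (log2 difference 0.85), Icosl (−1.08), Btla (−1.02) and Nectin2 (−2.44). The lymph node cells had also been injected and sorted, so a change from culture is not that of the lymph node alone. Route and day of collection cannot be told apart in these differences.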

How the results depend on the processing

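Of 15 called member results, 13 kept direction and call in all 20 alternatives run; the exceptions were Cd80 in hematogenous against culture libraries and Nectin2 between the lymph node groups, which the filter removed when only those 2 groups were fitted. Of 539 alternative member values, 514 kept direction and side of the threshold, 11 gained the call, 10 lost it and 4 changed sign. Leaving out single libraries gave log2 changes of −0.25 to 0.029 for Cd274 and −0.29 to 0.40 for Cd40 (lymphatic against culture) and −0.18 to 0.0099 for Btla (hematogenous against culture), and Cd40 was at −0.31 without lymphatic replicate 4 and culture replicate 4. The sign changed without lymphatic replicate 3 for Cd274, lymphatic replicate 4 for Cd40 and hematogenous replicate 2 for Btla. Leaving out single libraries gave differences in the Tnfrsf14 to Btla ratio between the lymph node groups of −0.0051 to 0.0472, below 0 without lymphatic replicate 3.

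The replicate numbers did not pair the libraries: 0 of 12 same-number pairs correlated over 0.1 (−0.181 to 0.0919), and a library correlated best with its own number in 3 of 24 combinations of library and other group. With a replicate block 5, 6 and 3 members were called in lymphatic against culture, hematogenous against culture and lymphatic against hematogenous libraries, against 5, 6 and 4, while the shares of all genes called were 21.9%, 24.7% and 17.1%, against 26.4%, 27.8% and 22.3%. The block left 0 calls in the nectin and TIGIT list (lymphatic against culture), 0 in the TNF family list and 1 in the CD40 list (both between the lymph node groups).

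Without the filter on low counts, lymphatic against culture gave 5 calls in the B7 and CD28 list, 2 in the nectin list and 8 in the CD40 list, hematogenous against culture gave 2 in the nectin list, and lymphatic against hematogenous gave 3, 1 and 4 in the B7, nectin and CD40 lists. The shares of all genes called in these comparisons without the filter were 12.7%, 12.4% and 10.2%. DESeq2 gave 0 in the nectin list for lymphatic against culture, where it called 29.5% of all genes. Fitting only the 2 groups compared gave 1 call in the B7 list for hematogenous against culture, with 50.5% of all genes called. Between the lymph node groups it gave 0 and 1 in the TNF and CD40 lists, with 13.3% of all genes called. Leaving out lymphatic replicate 4 with culture replicate 4 gave 9 and 5 calls in the CD40 list for lymphatic against culture and against hematogenous libraries. Of all genes 30.7% and 29.4% were then called. Leaving out single libraries gave 0 to 2 nectin and 5 to 9 CD40 calls for lymphatic against culture, 0 to 1 nectin calls for hematogenous against culture, and 1 to 2 B7, 0 to 2 TNF, 0 to 1 nectin and 1 to 5 CD40 calls between the lymph node groups. The shares of all genes called ran from 19.3% to 35.6%, 22.7% to 43.1% and 14.5% to 31.5% in these comparisons. The cause of these differences in calls was not tested. Depth limits Cd86 and Cd80 in culture, Nectin2 in lymph nodes and Pvr throughout.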
